A study of Homo sapiens with 26 samples.

Results

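The genes described here are those of glycolysis and of the response to low oxygen in MDA-MB-468 cells, a line grown from a human breast tumour that lacks hormone receptors and HER2 and is of basal type. They were taken from a list of 36 names, of which 33 were measured among 19775 genes, and SLC16A1, SLC16A3 and CA9 are not analysed here. Each gene was read on its brightest single-gene probe set by mean log2 intensity over 26 Affymetrix HG-U133 Plus 2.0 arrays. The 33 genes fall by role into 2 glucose transporters, 9 enzymes of upper glycolysis, 6 of lower glycolysis, 3 that set the fate of pyruvate, 2 that control fructose 2,6-bisphosphate, 1 carbonic anhydrase, 5 oxygen-dependent dioxygenases and 5 other genes induced by low oxygen.

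The study asked what NOTCH3, a cell-surface receptor, does to gene expression, in 2 experiments with 9 treatment groups. In the experiment on antagonism, 40 h of growth were followed by 24 h with 10 µg/ml of the NOTCH3-blocking antibody A4 plus 0.05% DMSO (2 arrays), with 5 µM DAPT plus 10 µg/ml control IgG (3 arrays), or with 10 µg/ml of a control IgG against gD plus 0.05% DMSO (3 arrays). DAPT is an inhibitor of gamma-secretase, the protease that releases the active part of every Notch receptor. In the agonism experiment every group but DMSO, which was given 0.05% DMSO, first had 5 µM DAPT for 16 h, and all plates were then washed into plain medium for 2 h. The 24 h that followed were spent with JAG1-Fc coated beads, which present a Notch ligand, with Fc coated beads, with 20 µg/ml of the activating NOTCH3 antibody A13, with 20 µg/ml control IgG, with 5 µM DAPT again, or with 0.05% DMSO (3 arrays each). DAPT and DMSO, but no other agent, were added once more at 22 h. The control IgG group of this experiment is thus a washout of DAPT, and it differs from the DAPT and DMSO groups also in the IgG and in that late addition. Cells were plated at 6.25 in this experiment and at 2.5 in the antagonism experiment, in the labels' unit of 10e6 cells per 10 cm plate.

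Glycolysis splits glucose into pyruvate and yields ATP without oxygen. Hexokinases trap glucose, phosphofructokinases commit it to the pathway, and lactate dehydrogenases pass electrons between pyruvate and lactate. Pyruvate dehydrogenase kinases shut off pyruvate dehydrogenase and so hold back the oxidation of pyruvate in the mitochondrion. When oxygen is short, the transcription factor HIF is no longer hydroxylated by EGLN enzymes, is not destroyed, and raises many of these genes through DNA sites with an RCGTG core, and MYC is also known to act on glucose and lactate genes in cancer cells.

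RefSeq start sites (GRCh38.p14) gave 53 promoter windows for 30 of the 33 genes, and SLC2A3, BNIP3L and NDRG1 were not searched. The 250 bases before the start were searched on both strands for ACGTG and GCGTG, the forms that RCGTG can take. Windows of HK2, BNIP3 and LDHB are shown because these genes stood for 3 different patterns over the treatments, described further on. Capitals mark the matches on either strand, where the reverse forms are CACGT and CACGC.

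HK2: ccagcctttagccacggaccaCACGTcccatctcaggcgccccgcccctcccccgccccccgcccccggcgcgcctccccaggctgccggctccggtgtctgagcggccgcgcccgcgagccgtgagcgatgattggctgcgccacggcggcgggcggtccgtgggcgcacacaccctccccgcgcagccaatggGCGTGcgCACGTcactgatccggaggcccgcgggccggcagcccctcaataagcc
BNIP3: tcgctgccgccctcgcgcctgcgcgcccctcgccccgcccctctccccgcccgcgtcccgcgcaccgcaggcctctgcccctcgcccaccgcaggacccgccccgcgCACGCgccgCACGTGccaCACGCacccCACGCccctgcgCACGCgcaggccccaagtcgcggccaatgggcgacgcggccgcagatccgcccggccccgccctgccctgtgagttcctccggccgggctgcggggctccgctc
LDHB: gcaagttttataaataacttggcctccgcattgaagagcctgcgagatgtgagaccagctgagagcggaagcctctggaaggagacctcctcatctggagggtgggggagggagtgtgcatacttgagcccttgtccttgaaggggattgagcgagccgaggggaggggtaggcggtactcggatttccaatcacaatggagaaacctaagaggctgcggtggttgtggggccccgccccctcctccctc

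The HK2 window (chr2:74833877-74834126, plus strand, the earlier of its 2 starts) held 3 matches, and the window of its other start, not printed, held 6. The BNIP3 window (chr10:131981924-131982173, minus strand) held 6, counting a CACGTG once on each strand, and the LDHB window (chr12:21657843-21658092, minus strand) held 0. ACGTG stood in 20 of the 53 windows of these genes (37.7%), against 18.5% of all 35116 windows of that length. GCGTG stood in 32.1% of the windows of these genes, against 32.2% of all windows, and the palindrome CACGTG, whose 2 strands each count as an ACGTG, in 15.1% against 6.34%. ACGTG or GCGTG stood in 58.5% of the windows of these genes, against 43.2% of all windows. A match is a run of letters and not a bound site, and windows of 1 gene can overlap.

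Markers were read to check the labelled line. The 7 measured epithelial and basal markers lay between the 66.3 (KRT14) and the 99.6 percentile of genes in the agonism experiment. The 2 measured leukocyte markers lay at the 7.49 (PTPRC) and 49.7 (CD3E) percentiles. The 3 endothelial markers lay between the 20.9 and the 62.4 percentile, and the 3 fibroblast markers between the 21.8 and the 72.8 (COL1A1). ESR1, PGR and ERBB2 lay between the 17.9 and the 72.0 (ERBB2), so COL1A1 and ERBB2 lay above the basal marker KRT14. The part of these markers in the results was not tested. The treatments were checked on MYC, a known Notch target, whose log2 change was -1.34 ± 0.10 with DAPT against control IgG, -1.15 ± 0.11 with A4 against control IgG, -1.21 ± 0.07 with DAPT against DMSO, 1.33 ± 0.07 with A13 against IgG and 0.80 ± 0.07 with JAG1 against Fc beads (SE). NOTCH3 and HES1 fell with both antagonists and rose with A13, with limma's adjusted p between 0.00131 and 0.0410. NRARP, also checked, changed by -0.24 with DAPT and -0.31 with A4 against control IgG and passed with neither. It had 10.27, 10.23 and 10.18 with A13, against 8.35, 8.34 and 8.28 with IgG. With JAG1 against Fc beads NRARP had 9.45, 9.36 and 9.42, against 8.50, 8.41 and 8.30. NOTCH3 had 12.51, 12.32 and 12.50, against 12.03, 12.20 and 11.72, and HES1 11.03, 10.84 and 11.02, against 10.70, 10.74 and 10.78. The log2 ratio of 3′ to 5′ GAPDH probe sets, a sign of RNA quality, was 0.0063 to 0.142 in the antagonism experiment and -0.175 to -0.117 in the agonism experiment, and its part in the results was not tested. Control array 2 of the antagonism experiment stood apart from its group: over all genes the SD of its log2 difference from control arrays 1 and 3 was 0.247 and 0.320, against 0.158 between those arrays and at most 0.194 within any other group. Whether a group's arrays stand for separate cultures is not given in the labels, and the protocol speaks of 1 DMSO plate, so p-values measure the spread between these arrays, which may be technical.

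Most of the pathway was strongly expressed. GAPDH, LDHA, PGK1 and ALDOA lay at or above the 99.3 percentile of all genes in both experiments, and GPI, PGAM1, ENO1, PKM, TPI1 and HK1 at or above the 94.1 percentile. The isoforms known from brain and other tissues were dim: SLC2A3, a high-affinity glucose transporter, lay at the 23.3 percentile in the agonism experiment, ENO2 at the 28.2 and ALDOC at the 41.4. Among the agonism groups DMSO had the lowest mean for 14 of the 33 genes, and JAG1 beads had the highest mean for 11 and DAPT for 10. The order of groups was not counted over all genes, of which IgG against DMSO called 17.9% higher and 12.6% lower. The lowest and highest group means were farthest apart for HK2 (0.96 on the log2 scale, 1.94-fold), PFKP (0.95), LDHB and ANKRD37 (0.83 each) and PDK1 (0.80), and closest for PGK1 (0.10). Of the 33 genes, 23 passed limma's test at an adjusted p under 0.05 in at least 1 comparison. The same share was not counted over all genes, of which IgG against DMSO alone called 30.6%. ADM, ALDOC, ENO2, GAPDH, KDM3A, PFKFB3, PFKFB4, PGAM1, PGK1 and SLC2A3 passed in none.

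**Figure D1:**
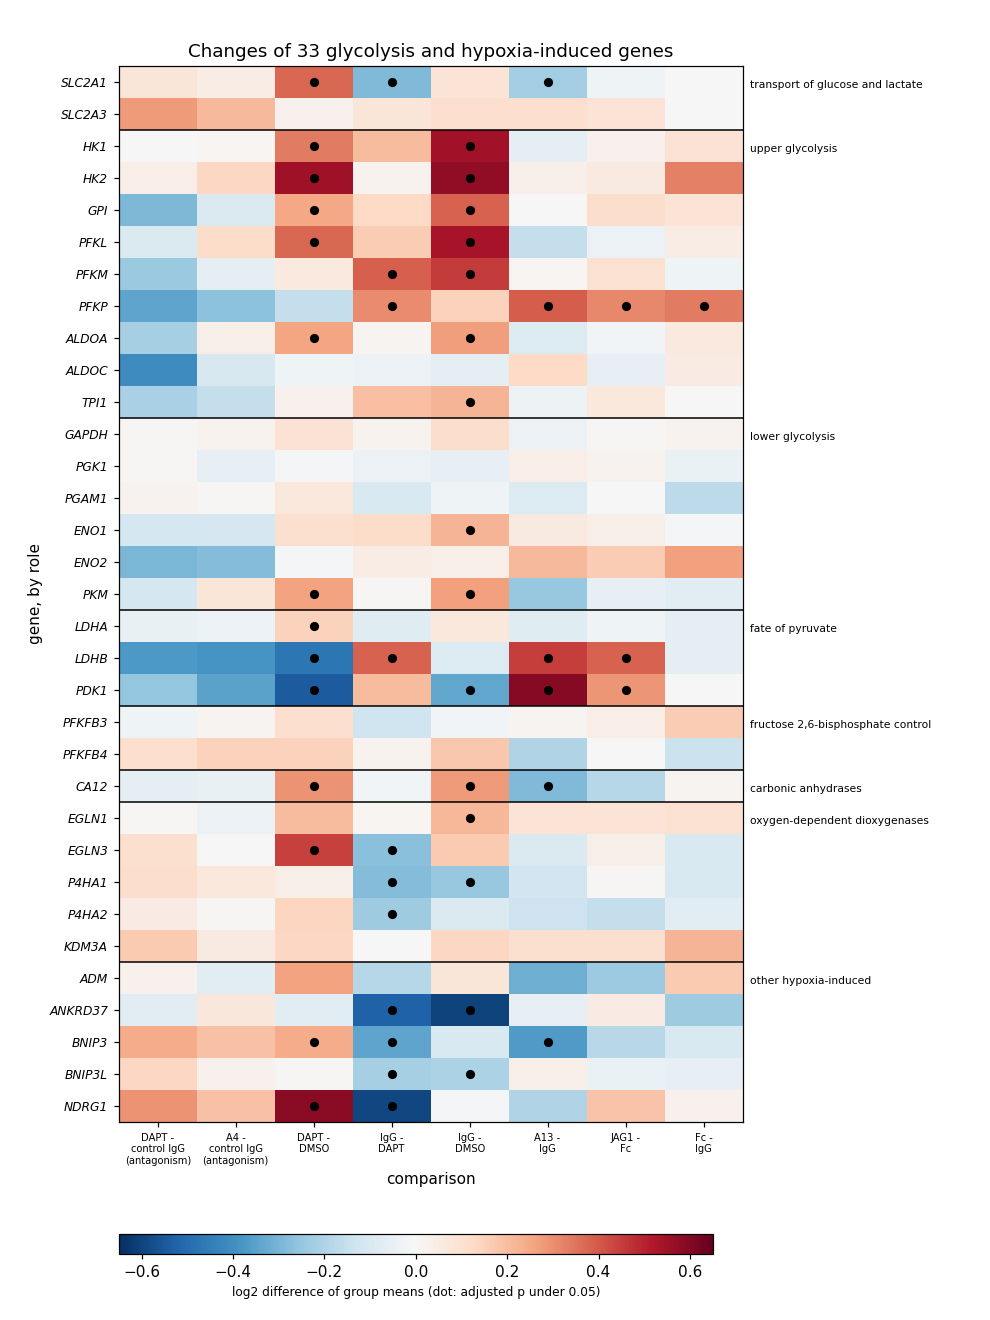
Log2 difference of group means for 33 genes (rows, by role) in 8 comparisons (columns), with a dot where limma's adjusted p was under 0.05. Dots are dense in the DAPT - DMSO and IgG - DMSO columns (14 and 15 genes), LDHB, PDK1 and PFKP carry dots in both agonist columns, and the 2 antagonism columns have none.

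DAPT against DMSO, the comparison of continued gamma-secretase inhibition with its vehicle, raised 12 of the 33 genes and lowered 2, which is 42.4%, against 20.7% of all genes called (12.4% higher and 8.31% lower). The shares of all genes given here and below include dim genes, which were called less often. Of the 33 genes only SLC2A3, ENO2 and ALDOC lay below the median level in this experiment. Among the 9887 genes above that level, fitted alone, 4555 were called. The rises ran from the glucose transporter through upper glycolysis to hypoxia-induced genes, and were small, at log2 0.15 to 0.58, or up to 1.50-fold. The 2 falls were LDHB, the lactate dehydrogenase subunit that favours lactate use, and PDK1, a kinase that shuts off pyruvate dehydrogenase. The median change was 0.14 over the 33 genes, against 0.02 over all genes. In RNA of whole plates a change in some cells and a smaller change in every cell cannot be told apart.

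SLC2A1, the main glucose transporter of many tumour cells, had log2 intensities of 9.64, 9.72 and 9.81 on DAPT arrays, against 9.37, 9.37 and 9.31 on DMSO arrays. It rose by 0.37 ± 0.05 (SE, n = 3 each, adjusted p = 0.000131), and every DAPT array lay above every DMSO array. The share of all genes without overlap was not counted, in this or any other comparison. SLC2A3 did not pass (0.03 ± 0.10).

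Upper glycolysis held 5 rises among its 9 genes. HK2, the inducible hexokinase of tumours, had 10.09, 10.10 and 10.30 on DAPT arrays, against 9.44, 9.82 and 9.57 on DMSO arrays, a rise of 0.55 ± 0.08 (adjusted p = 0.000197). PFKL, the liver-type phosphofructokinase, had 10.51, 10.47 and 10.58 with DAPT, against 10.06, 10.32 and 10.07 with DMSO, a rise of 0.37 ± 0.07 (adjusted p = 0.000972). HK1, the housekeeping hexokinase, had 11.63, 11.67 and 11.84 with DAPT, against 11.28, 11.57 and 11.28 with DMSO, a rise of 0.34 ± 0.07 (adjusted p = 0.00273). In these 3 genes the groups did not overlap, and DMSO array 2 was the highest of its group in each. ALDOA, which cleaves fructose 1,6-bisphosphate, rose by 0.25 ± 0.06, and GPI, which turns glucose 6-phosphate into fructose 6-phosphate, by 0.25 ± 0.07 with overlapping arrays. PFKM, PFKP, ALDOC and TPI1 did not pass, and PFKP, the platelet-type phosphofructokinase, stood at -0.16 ± 0.08.

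Of the 6 genes of lower glycolysis only PKM, the pyruvate kinase that ends the pathway, passed in this comparison. It had 13.29, 13.47 and 13.36 with DAPT, against 13.09, 13.20 and 13.04 with DMSO, a rise of 0.26 ± 0.09 (adjusted p = 0.0436). A second, dimmer PKM probe set gave -0.38. GAPDH, PGK1, PGAM1, ENO1 and ENO2 had changes between -0.01 and 0.10.

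All 3 genes for the fate of pyruvate passed, in opposite directions. LDHB had 10.55, 10.54 and 10.64 with DAPT, against 11.07, 11.01 and 11.06 with DMSO, a fall of -0.47 ± 0.06 (adjusted p = 3.21e-05). PDK1 had 9.77, 9.68 and 9.55 with DAPT, against 10.17, 10.06 and 10.40 with DMSO, a fall of -0.54 ± 0.08 (adjusted p = 0.000247). In both genes all DAPT arrays lay below all DMSO arrays. LDHA, the subunit that favours lactate formation, had 14.03, 14.03 and 14.01 with DAPT, against 13.88, 13.88 and 13.86 with DMSO, a rise of 0.15 ± 0.05 (adjusted p = 0.0265).

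Among the remaining genes CA12, a carbonic anhydrase of the cell surface, rose by 0.29 ± 0.08 (adjusted p = 0.0157), with 8.39, 8.37 and 8.25 on DAPT arrays, against 7.96, 8.23 and 7.93 on DMSO arrays. EGLN3, a HIF prolyl hydroxylase that is itself induced by HIF, had 9.62, 9.63 and 9.57 with DAPT, against 9.03, 9.19 and 9.26 with DMSO, a rise of 0.44 ± 0.08 (adjusted p = 0.000804). NDRG1, a stress and hypoxia gene, had 9.95, 9.78 and 9.65 with DAPT, against 9.11, 9.27 and 9.25 with DMSO, a rise of 0.58 ± 0.12 (adjusted p = 0.00223). BNIP3, which directs mitochondria to autophagy, had 11.04, 10.97 and 11.00 with DAPT, against 10.71, 10.72 and 10.86 with DMSO, a rise of 0.24 ± 0.07 (adjusted p = 0.0171). The groups did not overlap in any of these 4 genes. The other 4 dioxygenases, PFKFB3 and PFKFB4, ANKRD37, BNIP3L and ADM did not pass, with changes between -0.07 and 0.26.

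HK1, HK2, PFKL, LDHB, PDK1, EGLN3 and NDRG1 kept their calls under every alternative that gave a value, and SLC2A1 lost its call only on its dimmer probe set. The rise of HK2 was that of its brightest probe set. Its other sets, both dimmer, gave -3.33e-05 and 0.05, and its change was as low as 0.20 among the alternatives. Without DMSO array 1 the count was 8, with GPI, ALDOA, PKM, LDHA, CA12 and BNIP3 no longer passing, and each of these 6 genes was lost also without at least 1 of DMSO array 3 and the DAPT arrays.

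**Figure D2:**
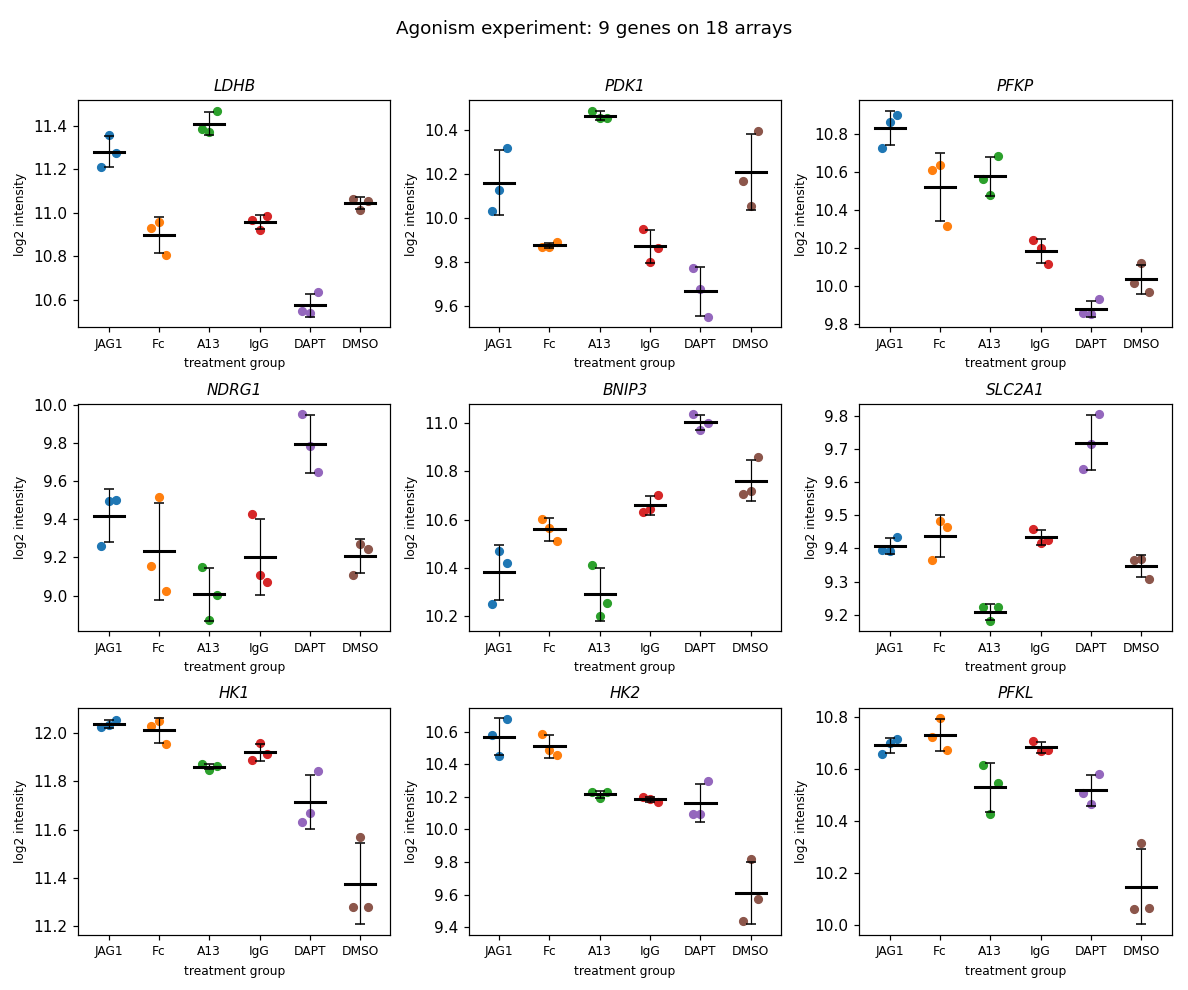
Log2 intensity (y axis) of 9 genes on the 18 agonism arrays, by treatment group (x axis), with a point per array, the group mean as a bar and the SD as whiskers. LDHB and PDK1 are lowest with DAPT and highest with A13, NDRG1, BNIP3 and SLC2A1 are highest with DAPT, and HK1, HK2 and PFKL have their lowest mean with DMSO.

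The control IgG group against DAPT shows what followed when DAPT was washed out and not put back. Of the 33 genes 3 rose and 8 fell (33.3%), against 9.77% of all genes called (4.15% higher and 5.62% lower). Among the 9887 genes above the median level, fitted alone, 2505 were called. The falls lay in the hypoxia-induced genes and in SLC2A1, and the rises in LDHB and 2 phosphofructokinases. The comparison shares its DAPT arrays with DAPT against DMSO, so a value of a DAPT array enters both with opposite sign.

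NDRG1 had 9.43, 9.11 and 9.07 with IgG, against 9.95, 9.78 and 9.65 with DAPT, a fall of -0.59 ± 0.12 (SE, n = 3 each, adjusted p = 0.00436). ANKRD37, an ankyrin-repeat gene induced by HIF, had 8.44, 8.04 and 8.11 with IgG, against 8.90, 8.79 and 8.47 with DAPT, a fall of -0.53 ± 0.12 (adjusted p = 0.00982). BNIP3 had 10.63, 10.64 and 10.70 with IgG, against 11.04, 10.97 and 11.00 with DAPT, a fall of -0.34 ± 0.07 (adjusted p = 0.00335). No IgG array reached a DAPT array in these genes, although IgG array 1 and DAPT array 3 lay close for ANKRD37. BNIP3L, a relative of BNIP3, fell by -0.22 ± 0.06, and ADM, the vasodilator peptide adrenomedullin, stood at -0.18 ± 0.12 and did not pass.

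Of the dioxygenases 3 of 5 fell. P4HA1, a collagen prolyl hydroxylase, had 9.68, 9.45 and 9.56 with IgG, against 9.86, 9.92 and 9.75 with DAPT, a fall of -0.28 ± 0.07 (adjusted p = 0.0105). EGLN3 had 9.44, 9.26 and 9.30 with IgG, against 9.62, 9.63 and 9.57 with DAPT, a fall of -0.27 ± 0.08 (adjusted p = 0.0417). P4HA2, of the same enzyme family, had 8.90, 8.88 and 8.96 with IgG, against 9.10, 9.13 and 9.21 with DAPT, a fall of -0.23 ± 0.07 (adjusted p = 0.0464). EGLN1, the main HIF prolyl hydroxylase, stood at 0.01 ± 0.07, and KDM3A, a histone demethylase, did not pass either. SLC2A1 had 9.46, 9.42 and 9.43 with IgG, against 9.64, 9.72 and 9.81 with DAPT, a fall of -0.29 ± 0.05 (adjusted p = 0.0022).

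LDHB had 10.97, 10.92 and 10.98 with IgG, against 10.55, 10.54 and 10.64 with DAPT, a rise of 0.38 ± 0.06 (adjusted p = 0.0003). PFKM, the muscle-type phosphofructokinase, had 8.63, 8.77 and 8.71 with IgG, against 8.23, 8.21 and 8.50 with DAPT, a rise of 0.39 ± 0.08 (adjusted p = 0.0026). PFKP had 10.24, 10.20 and 10.12 with IgG, against 9.86, 9.85 and 9.93 with DAPT, a rise of 0.31 ± 0.08 (adjusted p = 0.0224). The 3 genes had every IgG array above every DAPT array. PDK1 stood at 0.20 ± 0.08 and did not pass (adjusted p = 0.149).

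PFKM, LDHB, BNIP3 and NDRG1 kept their calls under every alternative that gave a value, and leaving out DAPT array 1, IgG array 2 or DAPT array 2 gave counts of 6, 5 and 6, with calls of PFKP, P4HA1, P4HA2, EGLN3, ANKRD37 and BNIP3L lost. On other, dimmer probe sets SLC2A1 and P4HA1 gave 0.02 each, P4HA2 gave 0.10 and 0.02, and ANKRD37 gave 0.13. Those of LDHB, PFKP, EGLN3, BNIP3 and BNIP3L kept the sign of the call. The mean over probe sets gave a change as small as -0.20 for ANKRD37, which did not pass. P4HA2 kept its call under 4 of 13 alternatives and lost it when any 1 IgG or DAPT array was left out.

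IgG against DMSO compares cells that had been inhibited and released with cells that had never had DAPT. Here 11 genes rose and 4 fell (45.5%), against 30.6% of all genes called (17.9% higher and 12.6% lower). Among the 9887 genes above the median level, fitted alone, 5859 were called. Of the rises 9 lay in the enzymes of glycolysis, 7 of 9 in the upper part and 2 of 6 in the lower, and the others were CA12 and EGLN1. The falls were ANKRD37, PDK1, P4HA1 and BNIP3L. The median change was 0.11 for the 33 genes, against 0.06 for all genes.

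HK1 had 11.89, 11.96 and 11.91 with IgG, against 11.28, 11.57 and 11.28 with DMSO, a rise of 0.55 ± 0.07 (SE, n = 3 each, adjusted p = 3.33e-05). HK2 had 10.20, 10.19 and 10.17 with IgG, against 9.44, 9.82 and 9.57 with DMSO, a rise of 0.57 ± 0.08 (adjusted p = 7.15e-05). PFKL had 10.71, 10.67 and 10.68 with IgG, against 10.06, 10.32 and 10.07 with DMSO, a rise of 0.54 ± 0.07 (adjusted p = 2.61e-05). In these genes even the highest DMSO array, array 2, lay below all IgG arrays. PFKM rose by 0.45 ± 0.08, GPI by 0.38 ± 0.07, ALDOA by 0.27 ± 0.06 and TPI1, the triose phosphate isomerase, by 0.22 ± 0.07.

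In lower glycolysis ENO1, the main enolase, had 13.28, 13.31 and 13.27 with IgG, against 13.02, 13.16 and 13.02 with DMSO, a rise of 0.22 ± 0.05 (adjusted p = 0.00323). PKM had 13.55, 13.36 and 13.23 with IgG, against 13.09, 13.20 and 13.04 with DMSO, a rise of 0.27 ± 0.09 (adjusted p = 0.0272). Another ENO1 probe set, nearly as bright, gave 0.18, while the much dimmer ones gave -0.13 and -0.44. The other PKM set, also much dimmer, gave -0.53, so the rise of PKM is that of its brightest probe set. Outside the pathway CA12 rose by 0.28 ± 0.08, and EGLN1 by 0.22 ± 0.07 with overlapping arrays.

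ANKRD37 had 8.44, 8.04 and 8.11 with IgG, against 8.75, 8.68 and 8.95 with DMSO, a fall of -0.60 ± 0.12 (adjusted p = 0.00109). PDK1 had 9.95, 9.80 and 9.86 with IgG, against 10.17, 10.06 and 10.40 with DMSO, a fall of -0.34 ± 0.08 (adjusted p = 0.00527). P4HA1 had 9.68, 9.45 and 9.56 with IgG, against 9.79, 9.77 and 9.86 with DMSO, a fall of -0.25 ± 0.07 (adjusted p = 0.00844). All 3 had every IgG array below every DMSO array. BNIP3L fell by -0.21 ± 0.06.

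Side by side, the genes raised by DAPT against DMSO fall into 2 sets. ALDOA, CA12, GPI, HK1, HK2, PFKL and PKM also passed as higher in IgG against DMSO. BNIP3, EGLN3, LDHA, NDRG1 and SLC2A1 did not pass in that comparison, with changes of -0.10, 0.17, 0.07, -0.01 and 0.09, and all of these but LDHA fell with IgG against DAPT. The 2 comparisons share the DMSO arrays. HK1, HK2, GPI, PFKL, PFKM, ALDOA and PDK1 kept their calls in IgG against DMSO under every alternative that gave a value. Without DMSO array 3 the count was 10, with TPI1, PKM, CA12, EGLN1 and BNIP3L lost, and P4HA1 was lost without IgG array 2. With the mean over probe sets the calls of CA12, P4HA1 and ANKRD37 were lost. Dimmer sets of P4HA1 and ANKRD37 gave 0.11 and 0.14.

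A13 against IgG gives the response to the activating NOTCH3 antibody. Of the 33 genes LDHB, PDK1 and PFKP rose and BNIP3, CA12 and SLC2A1 fell (18.2%), against 14.7% of all genes called (5.68% higher and 9.02% lower). Among the 9887 genes above the median level, fitted alone, 3397 were called. LDHB had 11.38, 11.37 and 11.47 with A13, against 10.97, 10.92 and 10.98 with IgG, a rise of 0.45 ± 0.06 (SE, n = 3 each, adjusted p = 2.49e-05). PDK1 had 10.49, 10.46 and 10.45 with A13, against 9.95, 9.80 and 9.86 with IgG, a rise of 0.59 ± 0.08 (adjusted p = 7.74e-05). PFKP had 10.57, 10.48 and 10.69 with A13, against 10.24, 10.20 and 10.12 with IgG, a rise of 0.39 ± 0.08 (adjusted p = 0.00249). Every A13 array of these 3 genes lay above every IgG array.

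BNIP3 had 10.41, 10.20 and 10.26 with A13, against 10.63, 10.64 and 10.70 with IgG, a fall of -0.37 ± 0.07 (adjusted p = 0.000981). SLC2A1 had 9.22, 9.18 and 9.22 with A13, against 9.46, 9.42 and 9.43 with IgG, a fall of -0.23 ± 0.05 (adjusted p = 0.00739). CA12 had 7.91, 8.04 and 8.14 with A13, against 8.34, 8.26 and 8.36 with IgG, a fall of -0.29 ± 0.08 (adjusted p = 0.0225). No A13 array reached an IgG array in these 3 genes. The 7 upper-glycolysis genes that were higher in IgG against DMSO did not pass here, with changes between -0.15 for PFKL and 0.03 for HK2. All calls but that of CA12 were kept under every alternative that gave a value. A dimmer probe set of PFKP gave 0.05, and those of PDK1 gave 0.48 and -0.05. CA12 did not pass without A13 array 1 or 2, without IgG array 1 or 3, or with probe sets ending in _x_at and _s_at left out, and its change ran from -0.34 to -0.07.

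JAG1 beads against Fc beads give the response to the ligand. LDHB, PFKP and PDK1 rose and no other of the 33 genes passed (9.09%), against 8.11% of all genes called (2.97% higher and 5.14% lower). Among the 9887 genes above the median level, fitted alone, 2116 were called. LDHB had 11.21, 11.36 and 11.27 with JAG1, against 10.93, 10.96 and 10.81 with Fc, a rise of 0.38 ± 0.06 (SE, n = 3 each, adjusted p = 0.000334). PFKP had 10.73, 10.87 and 10.90 with JAG1, against 10.62, 10.64 and 10.32 with Fc, a rise of 0.31 ± 0.08 (adjusted p = 0.0235). PDK1 had 10.03, 10.13 and 10.32 with JAG1, against 9.87, 9.87 and 9.89 with Fc, a rise of 0.29 ± 0.08 (adjusted p = 0.0451). The JAG1 arrays lay above the Fc arrays in all 3 genes, most narrowly for PFKP. Without JAG1 array 2, JAG1 array 3 or Fc array 3 the count was 1, PDK1 was lost also without Fc array 1 or 2, and of the 3 genes only LDHB kept its call under every alternative that gave a value, which for LDHB leaves out the one without _x_at and _s_at sets. The dimmer probe set of PFKP gave 0.0015. For BNIP3 the change was -0.18 ± 0.07, for CA12 -0.19 ± 0.08 and for SLC2A1 -0.03 ± 0.05, with none passing.

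**Figure D3:**
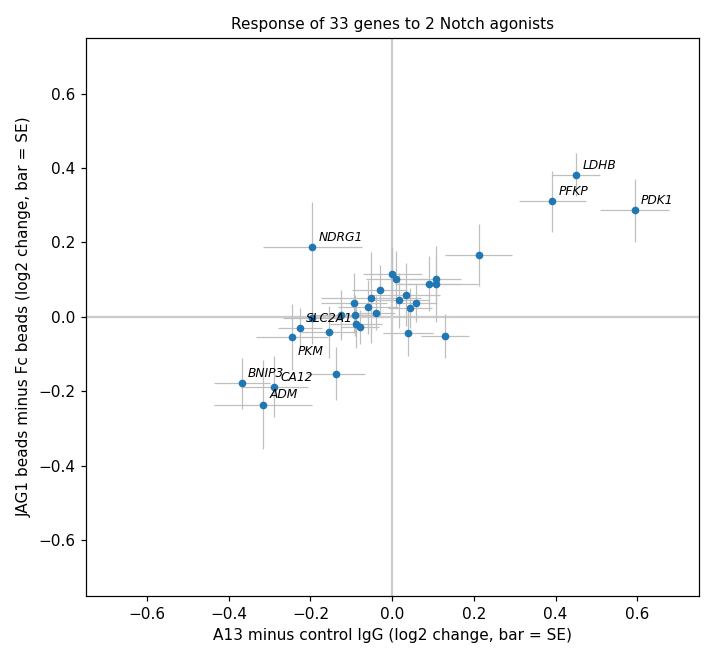
Log2 change of the 33 genes with A13 against control IgG (x axis) and with JAG1 beads against Fc beads (y axis), with SE bars. LDHB, PDK1 and PFKP lie apart at the upper right, at 0.29 to 0.38 with JAG1 and 0.39 to 0.59 with A13, while SLC2A1 lies at -0.03 with JAG1 and -0.23 with A13.

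The 2 agonist comparisons share no arrays. The difference between them, JAG1 effect minus A13 effect, passed limma's test for 0 of the 33 genes, against 0.182% of all genes (0.116% higher and 0.0657% lower). The unadjusted p was under 0.05 for 4 of the 33 and for 1173 of all genes. The difference was -0.07 for LDHB (95% interval -0.24 to 0.10), -0.08 for PFKP (-0.32 to 0.16) and -0.31 for PDK1 (-0.56 to -0.06, adjusted p = 0.728). It was 0.20 for SLC2A1 (0.03 to 0.36, adjusted p = 0.738), 0.38 for NDRG1 (0.02 to 0.75, adjusted p = 0.807) and 0.19 for BNIP3 (-0.01 to 0.39). These intervals are not adjusted for the number of genes, and that of BNIP3 reaches the size of its fall with A13.

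Fc beads against IgG, 2 controls that differ in the beads and the IgG, called 1 of the 33 genes, against 2.08% of all genes (1.64% higher and 0.44% lower). PFKP had 10.62, 10.64 and 10.32 with Fc beads, against 10.24, 10.20 and 10.12 with IgG, a rise of 0.34 ± 0.08 (SE, n = 3 each, adjusted p = 0.0391). Its groups did not overlap, and Fc array 3 lay nearer to the IgG arrays than to the other Fc arrays. HK2 stood at 0.33 ± 0.08 (adjusted p = 0.0536), with 10.59, 10.49 and 10.46 on Fc arrays, against 10.20, 10.19 and 10.17 on IgG arrays. The call of PFKP was lost without any 1 IgG array, Fc array 1 or Fc array 2, where the count was 0. Its dimmer probe set gave -0.07.

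In the antagonism experiment none of the 33 genes passed in any of its 3 comparisons. With DAPT against control IgG limma called 0 of them, against 0.354% of all genes (0.202% higher and 0.152% lower), and an unadjusted p under 0.05 was reached by 9 of the 33 and 2572 of all genes. With A4 against control IgG it called 0, against 0.101% of all genes (0.0455% higher and 0.0556% lower), with 4 of the 33 and 1836 of all genes at an unadjusted p under 0.05. Between A4 and DAPT it called 0, and 0 of all genes, and PKM was the 1 of the 33 with an unadjusted p under 0.05, as were 1628 of all genes.

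LDHB came nearest. It had 11.47 and 11.54 with A4 and 11.41, 11.54 and 11.60 with DAPT, against 11.80, 11.94 and 11.93 with control IgG. The change was -0.38 ± 0.09 with A4 (SE, n = 2 against 3, adjusted p = 0.169) and -0.37 ± 0.08 with DAPT (n = 3 each, adjusted p = 0.0913), and no treated array reached a control array. PFKP had 10.55 and 10.61 with A4 and 10.40, 10.51 and 10.61 with DAPT, against 10.83, 10.73 and 10.99 with control IgG. Its change was -0.27 ± 0.10 with A4 (adjusted p = 0.419) and -0.34 ± 0.09 with DAPT (adjusted p = 0.147), again with no overlap. Groups of 2 or 3 arrays can separate without any effect of treatment, and the share of all genes without overlap was not counted. PDK1 had 9.48 and 9.35 with A4 and 9.35, 9.44 and 9.74 with DAPT, against 9.64, 9.71 and 9.94 with control IgG, so that DAPT array 3 lay among the controls. Its change was -0.35 ± 0.13 with A4 and -0.25 ± 0.12 with DAPT.

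NDRG1 had 9.60 and 9.75 with A4 and 9.66, 9.91 and 9.77 with DAPT, against 9.57, 9.52 and 9.37 with control IgG. Its change was 0.19 ± 0.10 with A4 and 0.29 ± 0.09 with DAPT, and the treated arrays lay above the controls, A4 array 1 only just. SLC2A3 stood at 0.21 ± 0.07 with A4 and 0.28 ± 0.07 with DAPT, GPI at -0.09 ± 0.10 and -0.29 ± 0.09, and BNIP3 at 0.19 ± 0.10 and 0.24 ± 0.09. HK2 had 10.88 and 10.94 with A4 and 10.68, 10.74 and 11.04 with DAPT, against 10.75, 10.58 and 11.00 with control IgG, and the 3 groups overlapped. The 2 treated groups share their controls. DAPT array 3 was the highest of its group for 25 of the 33 genes, and control array 2 the lowest of its group for 17. Without control array 2, DAPT against control IgG called 4 of the 33: SLC2A3 as higher and PFKM, PFKP and LDHB as lower, and the calls among all 19775 genes numbered 1198, against 70 with it.

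**Figure D4:**
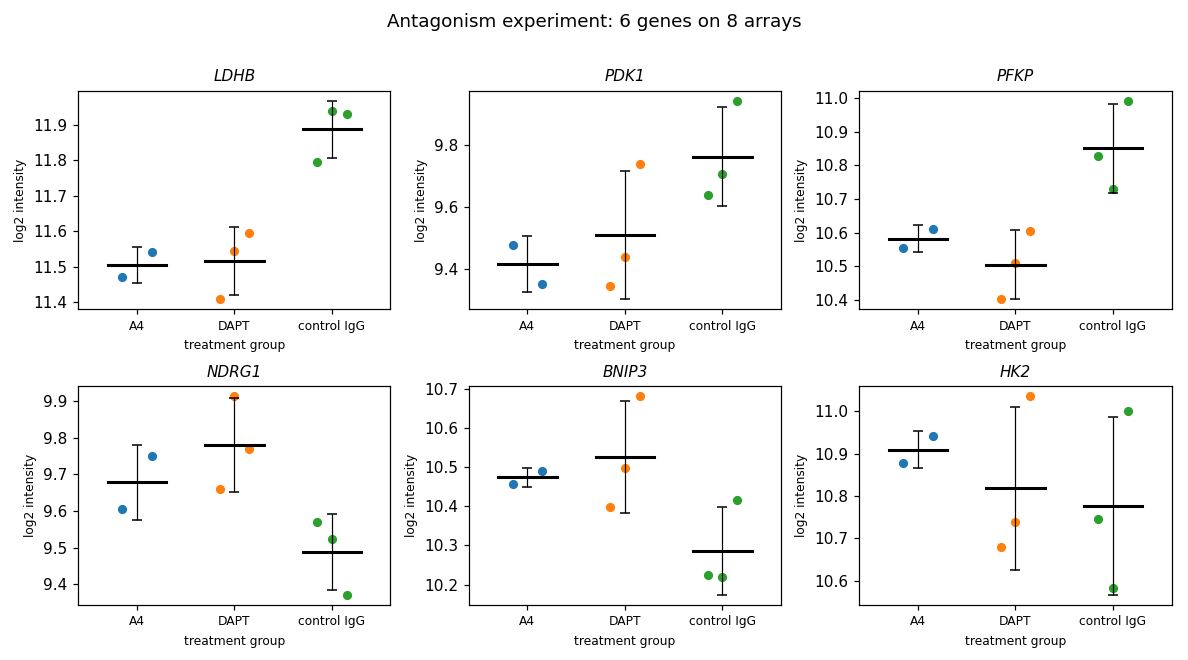
Log2 intensity (y axis) of 6 genes on the 8 antagonism arrays, by treatment group (x axis), with a point per array, the group mean as a bar and the SD as whiskers. The A4 and DAPT arrays lie below the control IgG arrays for LDHB and PFKP and above them for NDRG1, while the 3 groups overlap for HK2.

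The effect of DAPT differed between the experiments for 5 of the 33 genes, all with a more negative change in the antagonism experiment (15.2%), against 6.12% of all genes called (2.85% higher and 3.27% lower). In the fit of the 9307 genes above the median level in both experiments, 2012 were called, 10 of the 33 genes among them. For GPI the change was -0.29 ± 0.09 with DAPT against control IgG and 0.25 ± 0.07 with DAPT against DMSO, a difference of -0.54 ± 0.11 (adjusted p = 0.00742). For ALDOA, PFKL, HK2 and SLC2A1 the differences were -0.47, -0.47, -0.51 and -0.29. The difference was not called for LDHB (0.10 ± 0.09), PDK1 (0.29 ± 0.14) or BNIP3 (-0.00 ± 0.11). The experiments differed also in plating density, in prior exposure to DAPT and in the IgG. Only the agonism experiment had the 2 h wash and the addition at 22 h, and 40 h of growth is given only for the antagonism experiment. Array medians and the 3′ to 5′ GAPDH ratio differed too, and these cannot be told apart. The count was 10 without DMSO array 2 or antagonism control array 2, when 2398 and 2828 of all genes were called, against 1211 with them, and 1 without DMSO array 1 or 3, DAPT array 3 of the agonism experiment, or DAPT array 1 or 2 or control array 1 of the antagonism experiment.

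**Figure D5:**
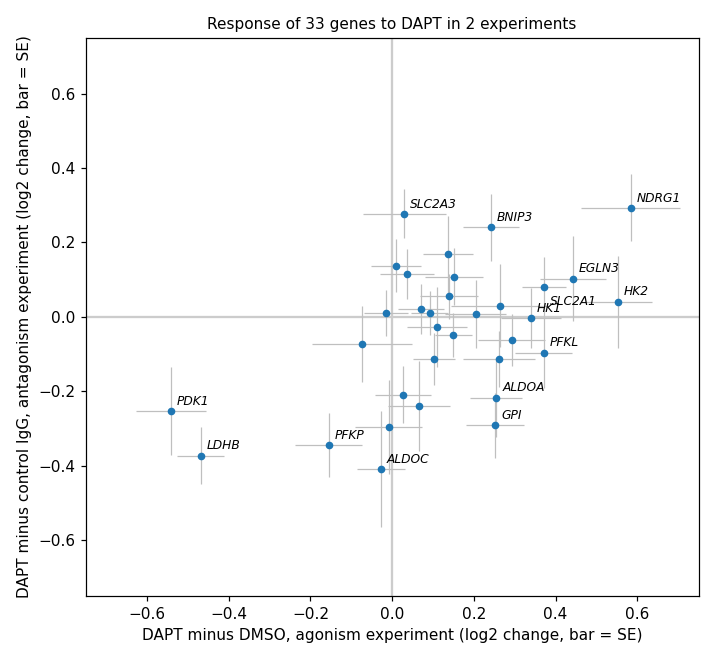
Log2 change of the 33 genes with DAPT against DMSO in the agonism experiment (x axis) and with DAPT against control IgG in the antagonism experiment (y axis), with SE bars. LDHB and PDK1 lie below 0 on both axes and NDRG1 and BNIP3 above 0 on both, while GPI and ALDOA lie below 0 on the y axis and above 0 on the x axis.

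Genes around the pathway were read from lists of the same kind. Of 11 measured HIF subunits and regulators, DAPT against DMSO raised CITED2 (0.61 ± 0.09), an inhibitor of HIF's coactivator binding, EPAS1 (0.41 ± 0.09), which encodes HIF-2 alpha, and EP300 (0.31 ± 0.10), a coactivator, and lowered HIF3A (-0.26 ± 0.08), which is 36.4% of the list, against 20.7% of all genes. IgG against DMSO raised EPAS1 (0.55 ± 0.09), EP300 (0.40 ± 0.10) and HIF1A (0.37 ± 0.06), which encodes HIF-1 alpha, or 27.3% of the list, against 30.6% of all genes. Among the 9887 genes above the median level, 4555 were called with DAPT against DMSO and 5859 with IgG against DMSO. IgG against DAPT raised HIF1A (0.27 ± 0.06) and lowered CITED2 (-0.40 ± 0.09), which also fell with A13 against IgG (-0.39 ± 0.09). JAG1 against Fc beads raised CREBBP (0.36 ± 0.10), another coactivator, and no gene of this list passed in Fc against IgG or in the antagonism experiment.

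Of the hypoxia-induced genes outside the 33, 22 were measured. With DAPT against DMSO 6 rose and 1 fell (31.8%), against 20.7% of all genes. With IgG against DAPT 5 rose and 0 fell (22.7%), against 9.77% of all genes, and with IgG against DMSO 11 rose and 2 fell (59.1%), against 30.6%. Of the 22 only ANGPTL4, LOX and RORA lay below the median level in the agonism experiment. Among the 9887 genes above that level, fitted alone, 4555 were called with DAPT against DMSO. With IgG against DAPT 2505 of them were called, and with IgG against DMSO 5859. For A13 against IgG there were 4 rises and 0 falls (18.2%, against 14.7% of all genes). JAG1 against Fc had 2 rises and 0 falls (9.09%, against 8.11% of all genes). Of the 9887 genes above the median level, 3397 were called with A13 against IgG and 2116 with JAG1 against Fc. STC2, a secreted glycoprotein of the stress response, rose by 1.19 ± 0.11 and DDIT4, an inhibitor of mTORC1, by 0.73 ± 0.07 with IgG against DAPT, where ANKRD37, BNIP3 and NDRG1 fell. STC2 also rose by 0.51 ± 0.11 with JAG1 against Fc beads and by 0.82 ± 0.11 with A13 against IgG. VEGFA, the angiogenic factor, rose by 0.31 ± 0.10 with IgG against DAPT and by 0.35 ± 0.10 with A13 against IgG.

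On the mitochondrial side of pyruvate, 16 genes of pyruvate oxidation and the citric acid cycle were measured. DAPT against DMSO raised 4 and lowered 0 (25.0%, near the 20.7% of all genes called), among them PDP1 (0.58 ± 0.06), the phosphatase that reverses the action of pyruvate dehydrogenase kinases, while PDK1 fell. A13 against IgG lowered 4 and raised 0 (25.0%, against 14.7% of all genes), among them PDP1 (-0.54 ± 0.06) and PC (-0.54 ± 0.09), pyruvate carboxylase, while PDK1 rose. PDP1 also fell with IgG against DAPT (-0.36 ± 0.06), where 3 of the 16 fell (18.8%, against 9.77% of all genes). With JAG1 against Fc beads MPC1 (-0.27 ± 0.08) and MPC2 (-0.22 ± 0.05), the 2 subunits of the mitochondrial pyruvate carrier, fell (12.5% of the list, against 8.11% of all genes), and the difference of the agonist effects was called for PDP1 (0.47 ± 0.09, adjusted p = 0.0385). IgG against DMSO raised 9 and lowered 4 (81.2%, against 30.6% of all genes). Of the 9887 genes above the median level, 5859 were called in that comparison and 3397 in A13 against IgG. DAPT against DMSO called 4555 of them, IgG against DAPT 2505 and JAG1 against Fc beads 2116. None of the 16 passed in the antagonism experiment.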

How the data were processed

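Gene expression was measured on 26 arrays, 8 in the antagonism and 18 in the agonism experiment. The deposited values are linear intensities, 1 per probe set and array, from 7.12 to 32597. RMA and R 2.10 are named without roles in the submitters' processing notes. RMA makes the arrays' distributions alike, so a shift of most transcripts in 1 direction would be reduced. The intensities were converted to log2. Array medians were 7.60 to 7.65 in the antagonism and 6.84 to 6.88 in the agonism experiment, so levels were not compared between experiments.

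Of 54675 probe sets, 41091 had 1 gene symbol in the platform annotation, 1801 had several, and 62 were controls, which were left out. A gene was read on its brightest single-gene probe set. For 19 of the 33 genes that set ends in _x_at or _s_at, which can detect related transcripts. No filter on low values was used in the main result.

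Groups came from the treatment labels, which give no replicate numbers, batches or dates, so arrays are numbered as listed. The test was limma's moderated one (version 3.58.1, under R 4.3.3; lmFit, contrasts.fit and eBayes). All groups of an experiment entered the same fit, with 5 (antagonism) and 12 (agonism) residual degrees of freedom, or 17 over all arrays for the difference of the DAPT effects. P-values were 2-sided and adjusted by Benjamini-Hochberg over 19775 genes, with 0.05 as the threshold. Every adjusted p is limma's. Changes are differences of mean log2 intensity ± SE. Precision is limited by the number of arrays, and the median SE of a change was 0.088 for DAPT in the antagonism and 0.081 in the agonism experiment. The fit was tested on simulated data. Alternatives were median centring, repeated quantile normalization, the mean of a gene's probe sets, no _x_at or _s_at sets, only genes above the median level, only the groups compared, trend and robust moderation, and each array left out.

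The members and lists were chosen with earlier results of these data known, so no p over a list is given. Every measured member could be named. Values on each array are given for passing members with the largest change of their role, at most 3 per role and comparison, and of other lists at most the 3 largest rises and falls. Promoter sequences are RefSeq's (GRCh38.p14). Plots were made in Python 3.11.15 with matplotlib 3.10.9.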

Additional observations from a re-analysis of the deposited data

Results flagged for a closer look

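The change with DAPT differed between the antagonism and the agonism experiment, by limma's test of the difference over all 26 arrays, for 5 genes. The difference, antagonism minus agonism, was -0.47 ± 0.12 for ALDOA (adjusted p = 0.0218), -0.54 ± 0.11 for GPI (adjusted p = 0.00742), -0.51 ± 0.15 for HK2 (adjusted p = 0.0393), -0.47 ± 0.11 for PFKL (adjusted p = 0.0196) and -0.29 ± 0.09 for SLC2A1 (adjusted p = 0.0454). In the antagonism experiment none of the 5 passed with DAPT against control IgG, and their changes were -0.22 ± 0.11 for ALDOA, -0.29 ± 0.09 for GPI, 0.04 ± 0.12 for HK2, -0.10 ± 0.10 for PFKL and 0.08 ± 0.08 for SLC2A1. In the agonism experiment all 5 passed as higher with DAPT against DMSO. GPI kept its call under every alternative that gave a value but the fit of only the groups compared, and it has no value without _x_at and _s_at sets. No test for outlying arrays was made gene by gene, since every group holds 2 or 3 arrays.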

How the results depend on the processing

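Of 55 calls of a gene in a comparison, 24 held under every alternative that gave a value, and 7 changes turned their sign, that of ENO1 under both alternatives that read other probe sets. Omitting each array in turn gave counts of called genes of 0 to 4 for DAPT against control IgG, 0 to 0 for A4 against control IgG and for A4 against DAPT, 8 to 17 for DAPT against DMSO, 5 to 10 for IgG against DAPT, 10 to 17 for IgG against DMSO, 5 to 6 for A13 against IgG, 1 to 3 for JAG1 against Fc, 0 to 1 for Fc against IgG, 0 to 0 for the difference of the agonist effects and 1 to 10 for that of the DAPT effects. Repeated quantile normalization gave 1 for DAPT against control IgG, 3 for Fc against IgG and 8 for the DAPT effects' difference. Only genes above the median level gave 1, 4 and 10 for these, and trend and robust moderation 1, 4 and 9, with 1 also for A4 against control IgG. The mean of a gene's probe sets gave 7 for IgG against DAPT, 1 for JAG1 against Fc and 0 for Fc against IgG. Without _x_at and _s_at sets only 20 of the 33 genes had a value, and the counts were 5 for DAPT against DMSO, 4 for IgG against DAPT, 8 for IgG against DMSO, 1 for JAG1 against Fc, 0 for Fc against IgG and 0 for the DAPT effects' difference. With only the groups compared they were 8 for DAPT against DMSO, 6 for IgG against DAPT, 1 for JAG1 against Fc, 0 for Fc against IgG and 0 for the DAPT effects' difference.

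With the mean of probe sets the change reversed for PKM, to -0.0586 with DAPT against DMSO and -0.13 with IgG against DMSO, and for ENO1, to -0.0434 with IgG against DMSO. Without _x_at and _s_at sets it reversed for CA12 with DAPT against DMSO (-0.0855), for SLC2A1 (0.0187) and P4HA1 (0.0222) with IgG against DAPT, and with IgG against DMSO for P4HA1 (0.11) and ENO1 (-0.44, adjusted p = 0.00288). These alternatives read other probe sets, and beyond that the cause was not tested. No paired analysis was possible because the labels give no replicate numbers.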

Other observations

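The pentose phosphate pathway, which branches from glycolysis at glucose 6-phosphate, had 6 measured genes. With DAPT against DMSO 4 rose and 1 fell (83.3%, against 20.7% of all genes): PGD by 0.25 ± 0.07 and TKT by 0.22 ± 0.07 were higher, and RPE, an epimerase, was lower by -0.33 ± 0.07. With IgG against DMSO 3 rose and 1 fell (66.7%, against 30.6% of all genes), with TKT at 0.32 ± 0.07 and RPE at -0.30 ± 0.07. With A13 against IgG 2 rose and 2 fell (66.7%, against 14.7% of all genes), with RPE at 0.27 ± 0.07 and TALDO1 at -0.24 ± 0.05. All 6 genes lay above the median level. Of the 9887 genes above it, 4555 were called with DAPT against DMSO, 5859 with IgG against DMSO and 3397 with A13 against IgG. None of the 6 passed with JAG1 against Fc beads or in the antagonism experiment.

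Of 13 measured tissue-restricted forms of glycolytic and gluconeogenic genes, FBP1, a bisphosphatase that opposes phosphofructokinase, passed in 4 comparisons. It was higher by 0.63 ± 0.10 with DAPT against DMSO and by 0.36 ± 0.10 with IgG against DMSO, and lower by -0.67 ± 0.10 with A13 against IgG and by -0.35 ± 0.10 with JAG1 against Fc beads. The FBP1 log2 intensities were 7.28, 7.07 and 7.48 with A13, against 8.02, 7.91 and 7.90 with IgG. They were 7.62, 7.57 and 7.46 with JAG1, against 7.91, 7.95 and 7.83 with Fc beads, and neither pair of groups overlapped.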
